A study of Mus musculus with 35 samples.

Results

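The protein-coding genes Cap1, Tmem87a, Cramp1l, Luc7l, Mark3, Lsm12, Myo19 and Traf3ip1 had higher read counts in amygdala cells of B6D2F1N mice than in those of C57BL/6J mice in each of the 4 combinations of housing and amygdala portion. They were picked by name, 8 of the 52636 genes in the count files, as protein-coding genes with a strain difference in these same libraries, so their strain differences are given as a description and support nothing beyond it. All 8 were expressed, with between 20 and 6904 counts per library. The largest differences were those of Tmem87a, a membrane protein of the Golgi, at 7.63-fold to 14.4-fold between group means, and of Cap1, a regulator of actin turnover, at 4.21-fold to 6.99-fold.

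The mice were females of 2 strains, C57BL/6J, an inbred strain, and B6D2F1N, a first-generation hybrid of C57BL/6 and DBA/2 parents, which carries a C57BL/6 and a DBA/2 copy of each autosomal gene. The read counts do not separate these copies. Mice of each strain lived either in standard cages or in an enriched environment, with access to a playground for 1 h per day from postnatal day 77. All of them, controls included, received restricted food and were trained on a touchscreen from postnatal day 70, for 37 to 90 days, and then took a cognitive judgment bias test over 5 days, which labelled 4 of them as optimists and 5 as pessimists. Cells were cut out with a laser microscope from the basolateral amygdala at an anterior and a posterior level. The names of the portions are those of the labels, and the positions stated for them in the study's methods run in the reverse of the usual order along the brain, so that which portion lies in front could not be settled. The 35 libraries analysed here came from 19 mice, 8 C57BL/6J and 11 B6D2F1N, and 16 mice had both portions. In standard housing there were 4 C57BL/6J and 5 B6D2F1N libraries of each portion. In enriched housing there were 2 and 5 libraries of the anterior portion and 4 and 6 of the posterior portion.

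The depth, as the sum of counts over genes, was 16938534 to 27352623 per library, and 0 pairs of libraries were identical. Xist, the RNA that silences an X chromosome in female cells, had 0 counts in both libraries of 1 B6D2F1N mouse in standard housing (mouse 1) and 54.4 to 206 CPM in all the others. CPM are counts scaled to a common library size with TMM factors. For the 8 genes, values without this mouse are given beside the comparisons of B6D2F1N mice in standard housing. None are given for related genes, such as those that overlap or flank the 8. Astrocyte, oligodendrocyte, microglial, endothelial and neuronal markers were all present in both strains. The summed level of 8 excitatory neuron markers was 1290 to 5675 CPM in the C57BL/6J libraries and 1139 to 4500 CPM in the B6D2F1N libraries, while that of 8 oligodendrocyte markers reached 28600 and 31990 CPM. Markers of tissue next to the amygdala also varied, as 8 meningeal fibroblast markers had a median summed level of 500 CPM (57.9 to 1766) in C57BL/6J and 89.8 CPM (35.8 to 1681) in B6D2F1N, and 8 choroid plexus markers one of 158 CPM (7.72 to 1473) and 943 CPM (7.1 to 14420). These medians pool both portions, and the group medians were lower in the anterior portion. Group medians of the meningeal sum were 50.3 to 77.9 CPM in anterior libraries. In posterior libraries they ran from 89.8 CPM (B6D2F1N, standard) to 1473 CPM (C57BL/6J, standard). Those of the choroid plexus sum were 9.36 to 19.7 CPM in anterior and 608 to 1841 CPM in posterior libraries. Over all libraries together, the 2 strains overlapped in the sum of each of the 9 marker lists. Within groups they overlapped as well, except for the oligodendrocyte sum in enriched posterior libraries. There it ran from 18250 to 28600 CPM in C57BL/6J and, wholly below, from 6953 to 16550 CPM in B6D2F1N. The part of cell composition in the differences below was not tested, and in such tissue samples fewer cells of a type and less RNA per cell cannot be told apart.

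The 8 genes serve different parts of the cell. Cap1, Mark3, Myo19 and Traf3ip1 belong to the cytoskeleton and its transport. The CAP1 protein works with cofilin to release and recharge actin monomers, MARK3 is a kinase that phosphorylates microtubule-associated proteins such as tau, MYO19 is a myosin anchored to the outer membrane of mitochondria, and TRAF3IP1 is a subunit of the intraflagellar transport complex B that builds cilia. TMEM87A is a membrane protein of the Golgi. The remaining genes act in the nucleus or on RNA: Cramp1l is the mouse counterpart of the fly Polycomb-group gene cramped, Luc7l encodes a protein of the U1 small nuclear ribonucleoprotein that takes part in the choice of splice sites, and Lsm12 encodes a partner of the RNA-binding protein ataxin-2.

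In the GRCm38 mouse genome the genes lie on 6 chromosomes. Cap1 is at chr4:122859047-122886056 on the minus strand, Tmem87a at chr2:120355312-120404113 on the minus strand, Mark3 at chr12:111574523-111656221 on the plus strand and Traf3ip1 at chr1:91494647-91529307 on the plus strand. Chromosome 11 holds Myo19 at chr11:84880148-84911226 on the plus strand and Lsm12 at chr11:102162497-102185296 on the minus strand. Chromosome 17 holds Cramp1l at chr17:24961226-25015788 on the minus strand and Luc7l at chr17:26252896-26285504 on the plus strand.

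The promoters of Cap1 and Tmem87a are shown because these genes had the largest strain differences. RefSeq promoter sequence on GRCm38.p6, from 250 bases before to 50 bases after a gene's start, matched 6 of the 8 genes (Cap1, Tmem87a, Cramp1l, Mark3, Myo19 and Traf3ip1). This reference is the C57BL/6J genome, the strain with the lower levels. The 250 bases before the start of Cap1 lie at chr4:122886077-122886326 and those before the start of Tmem87a at chr2:120404117-120404366, both on the minus strand and written 5′ to 3′, with capitals for the motifs found.
Cap1: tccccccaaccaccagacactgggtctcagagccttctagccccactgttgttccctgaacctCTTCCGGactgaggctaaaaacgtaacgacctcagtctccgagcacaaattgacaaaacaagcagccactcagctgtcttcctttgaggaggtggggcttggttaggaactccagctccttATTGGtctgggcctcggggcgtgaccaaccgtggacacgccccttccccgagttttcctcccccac
Tmem87a: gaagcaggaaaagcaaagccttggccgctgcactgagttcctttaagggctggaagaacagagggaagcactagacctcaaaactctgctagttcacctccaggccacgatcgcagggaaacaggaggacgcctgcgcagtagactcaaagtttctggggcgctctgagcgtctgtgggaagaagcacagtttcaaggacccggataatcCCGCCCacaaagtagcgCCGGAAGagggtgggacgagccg
The capitals mark matches, on either strand, to any of the motifs searched. Over the whole windows of 300 bases, the letters CCGGAAG of ETS factors were found in 3 of the 6 genes (Cap1, Tmem87a and Mark3) and in 8.86% of all 32851 promoters of the same length. The letters GGGCGG of the GC box were present in 4 of 6 genes (Tmem87a, Mark3, Myo19 and Traf3ip1) and in 35.7% of promoters. The letters CCAAT of the box of that name were present in Cap1 and Mark3, 2 of 6 genes, and in 37.4% of promoters. The letters AAGATGG of the YY1 motif were present in Mark3 and in 6.34% of promoters. The letters TATAAA of the TATA box were in 0 of 6 windows and in 13.6% of promoters. The letters TGACGTCA of the cyclic AMP response element were likewise in 0 windows, and in 1.79% of promoters. The letters CACGTG of the E box were also in 0 windows, and in 7.15% of promoters. The number of CpG dinucleotides ran from 11 in Cap1 to 32 in Traf3ip1, against a median of 7 over all promoters. These matches describe the reference letters in these windows.

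Cap1 was low in every C57BL/6J library and high in every B6D2F1N library. In the anterior portion under standard housing the 4 C57BL/6J libraries had 20.4, 24.6, 32.4 and 33.2 CPM and the 5 B6D2F1N libraries 105, 132, 146, 155 and 156 CPM. In the posterior portion they had 11.7, 16.1, 21 and 22.3 CPM against 101, 103, 125, 135 and 157 CPM. In both portions every B6D2F1N library lay well above every C57BL/6J library. Under enriched housing the 2 anterior C57BL/6J libraries had 20.8 and 27 CPM, against 124, 149, 150, 166 and 183 CPM. The posterior ones had 17.7, 20, 29.7 and 30.4 CPM, against a lowest, median and highest level of 92.8, 99.2 and 127 CPM in 6 B6D2F1N libraries. The strains did not overlap in any group or over all libraries, where the highest C57BL/6J library had 33.2 CPM and the lowest B6D2F1N library 92.8 CPM. The log2 fold changes of B6D2F1N over C57BL/6J were 2.33 ± 0.20 (SE) in standard anterior, 2.81 ± 0.25 in standard posterior, 2.72 ± 0.30 in enriched anterior and 2.09 ± 0.21 in enriched posterior libraries.

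Tmem87a differed most between the strains. Under standard housing the anterior C57BL/6J libraries had 6.21, 10.1, 12.5 and 16.8 CPM and the B6D2F1N libraries 62.5, 71.3, 92.9, 99.8 and 109 CPM. The posterior libraries had 6.65, 6.89, 12 and 16.4 CPM against 62.1, 64, 93.8, 103 and 106 CPM. The libraries of the strains were far apart in both portions. Under enriched housing the 2 anterior C57BL/6J libraries had 6.86 and 6.95 CPM, close to each other, and the B6D2F1N libraries 65.6, 70.2, 99.4, 114 and 147 CPM. The posterior C57BL/6J libraries had 6.6, 8.33, 10.4 and 11.3 CPM, and the B6D2F1N libraries ran from 50 over a median of 83.2 to 97.2 CPM. Over all groups the highest C57BL/6J level, 16.8 CPM, lay below the lowest B6D2F1N level, 50 CPM. The log2 fold changes were 2.94 ± 0.28 (SE), 3.04 ± 0.31, 3.87 ± 0.41 and 3.16 ± 0.25 in standard anterior, standard posterior, enriched anterior and enriched posterior libraries. The high value of enriched anterior libraries rested on 2 C57BL/6J libraries.

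**Figure D1:**
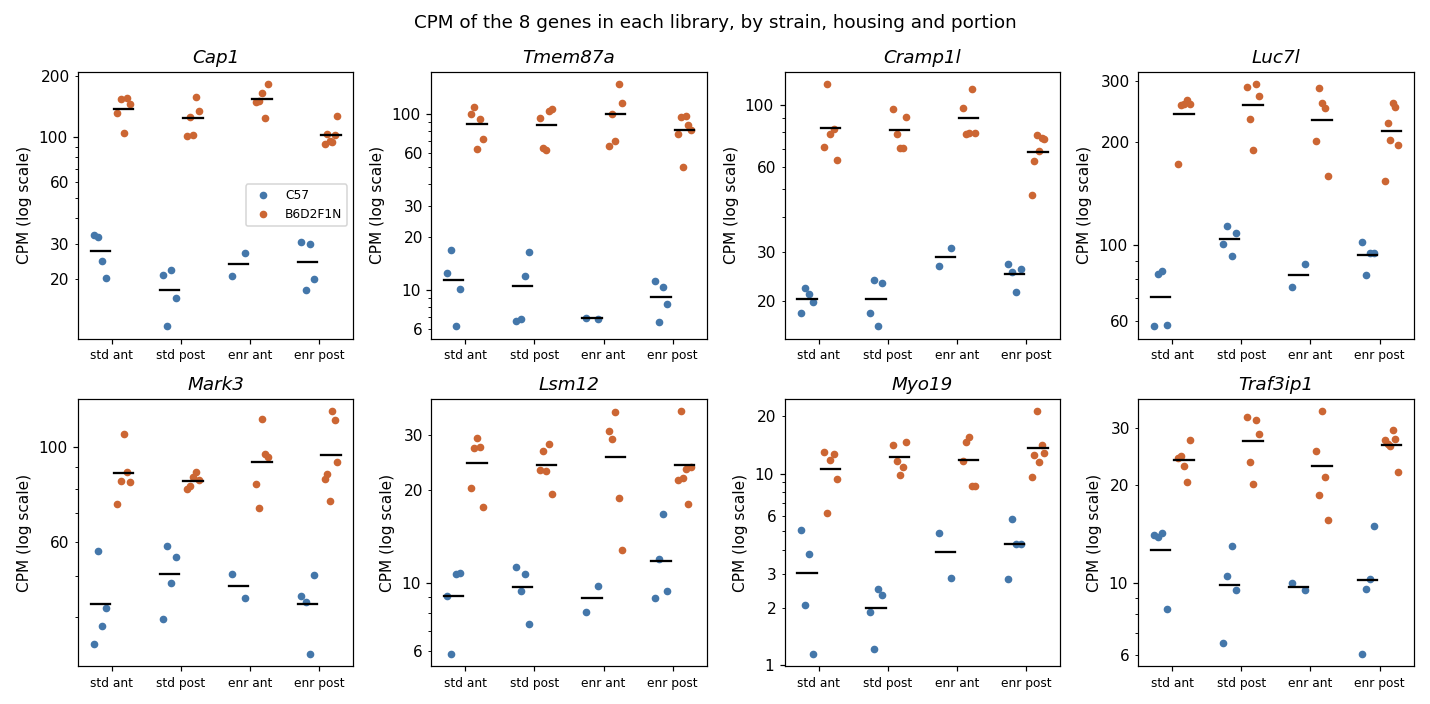
CPM (log axis) of each of the 8 genes in each library, by housing (std, standard, and enr, enriched) and portion (ant, anterior, and post, posterior), where points are libraries of C57BL/6J (C57, blue) or B6D2F1N (orange) mice and bars are group means. In each of the 4 groups all B6D2F1N points lie above all C57BL/6J points for all 8 genes.

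Myo19, the mitochondrial myosin, rested on the fewest reads, 20 to 119 counts per C57BL/6J library and 132 to 444 per B6D2F1N library. Its anterior libraries under standard housing had 1.15, 2.08, 3.79 and 5.11 CPM in C57BL/6J mice and 6.26, 9.39, 11.7, 12.6 and 12.9 CPM in B6D2F1N mice. The posterior ones had 1.22, 1.9, 2.32 and 2.49 CPM against 9.82, 10.8, 11.7, 14 and 14.5 CPM. The strains came closest to each other in the anterior portion. Under enriched housing the anterior levels were 2.86 and 4.91 CPM against 8.57, 8.62, 11.7, 14.6 and 15.4 CPM. The posterior levels were 2.83, 4.29, 4.3 and 5.78 CPM, against a lowest, median and highest of 9.58, 12.6 and 21.1 CPM. The strains were separate in each group, with the narrowest gap in standard anterior libraries, from 5.11 to 6.26 CPM. The log2 fold changes were 1.8 ± 0.44 (SE), 2.63 ± 0.35, 1.62 ± 0.56 and 1.67 ± 0.33 in the same order of groups.

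Cramp1l, the Polycomb-group homologue, ran from 16.2 to 30.8 CPM over the 14 C57BL/6J libraries and from 47.8 to 119 CPM over the 21 B6D2F1N libraries. Its group means were 20.3 ± 1.78 (SD, n = 4) and 82.8 ± 21.5 CPM (n = 5) in standard anterior, 20.3 ± 3.75 (n = 4) and 81.4 ± 12.1 CPM (n = 5) in standard posterior, 28.7 ± 3.02 (n = 2) and 90 ± 15.8 CPM (n = 5) in enriched anterior and 25 ± 2.47 (n = 4) and 68.3 ± 11.5 CPM (n = 6) in enriched posterior libraries. The fold between means was 4.07 and 4.01 in standard housing and 3.14 and 2.73 in enriched housing.

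Luc7l, of the U1 particle, ran from 58 to 114 CPM in C57BL/6J and, well above, from 154 to 295 CPM in B6D2F1N. Its group means were 70.9 ± 14.5 (SD, n = 4) and 242 ± 39.3 CPM (n = 5) in standard anterior, 104 ± 9.1 (n = 4) and 256 ± 43.9 CPM (n = 5) in standard posterior, 82.1 ± 8.95 (n = 2) and 232 ± 50.9 CPM (n = 5) in enriched anterior and 93.5 ± 8.61 (n = 4) and 215 ± 39.4 CPM (n = 6) in enriched posterior libraries. The log2 fold changes ran from 1.22 ± 0.19 (SE) in enriched posterior to 1.78 ± 0.20 in standard anterior libraries. In the latter group the mouse without Xist counts had 172 CPM and the other 4 B6D2F1N mice 256 to 266 CPM, and without that mouse the log2 fold change was 1.89.

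Mark3, the microtubule-affinity kinase, ran from 32.8 to 58.7 CPM in the C57BL/6J libraries and from 72.1 to 122 CPM in the B6D2F1N libraries, with folds between group means of 1.66 to 2.24. Its log2 fold change was the smallest of the 8 in standard posterior and enriched anterior libraries. In standard posterior libraries, where its log2 fold change was 0.74 ± 0.18 (SE), the 5 B6D2F1N libraries had 80.1, 81.4, 84, 85.1 and 87.6 CPM, and the 4 C57BL/6J libraries 39.6, 48, 55.5 and 58.7 CPM. In standard anterior libraries the log2 fold change was 1.03 ± 0.19, in enriched anterior libraries 0.99 ± 0.28 and in enriched posterior libraries 1.17 ± 0.21.

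Lsm12, the ataxin-2 partner, ran from 5.89 to 16.7 CPM in the C57BL/6J libraries and from 12.7 to 35.9 CPM in the B6D2F1N libraries. It was the 1 gene of the 8 whose strains overlapped when all groups were put together, as 1 enriched posterior C57BL/6J library had 16.7 CPM and 1 enriched anterior B6D2F1N library had 12.7 CPM, but within each group they did not overlap. Its log2 fold changes were 1.43 ± 0.28 (SE), 1.33 ± 0.24, 1.55 ± 0.46 and 1.05 ± 0.27 in standard anterior, standard posterior, enriched anterior and enriched posterior libraries.

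Traf3ip1, of the intraflagellar transport complex, ran from 6.05 to 14.9 CPM in the C57BL/6J libraries and from 15.7 to 33.9 CPM in the B6D2F1N libraries. Its log2 fold changes in the same order were 0.93 ± 0.24 (SE), 1.48 ± 0.26, 1.26 ± 0.42 and 1.40 ± 0.26. In standard anterior libraries 3 C57BL/6J mice had 13.9, 14 and 14.2 CPM and the fourth 8.3 CPM.

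To set the genes against each other, CPM were divided by the kilobases of all annotated exons of each gene. On this level per kilobase, the order in C57BL/6J was Luc7l with 11.8 ± 2.2 (SD over 14 libraries), Cap1 with 6.69, Mark3 with 4.71, Lsm12 with 4.18, Cramp1l with 2.90, Traf3ip1 with 2.89, Tmem87a with 1.31 and Myo19 with 0.452. In B6D2F1N Cap1 had 36.9 and Luc7l 31.3, followed by Tmem87a with 11.7, Lsm12 with 10.2, Cramp1l with 10.2, Mark3 with 9.28, Traf3ip1 with 6.83 and Myo19 with 1.70 CPM per kilobase. In B6D2F1N, Cap1 and Luc7l were closer to each other than their SD of 7.75 and 5.71, and neighbours from Tmem87a to Mark3 were closer than their SD over 21 libraries, which was 3.01, 2.49, 2.1 and 1.46 CPM per kilobase for Tmem87a, Lsm12, Cramp1l and Mark3. In C57BL/6J the same held for Mark3 and Lsm12, with SD of 0.831 and 1.05, and for Cramp1l and Traf3ip1, with SD of 0.518 and 0.771. Within a group of at least 4 libraries, the coefficient of variation between mice of the 8 genes was 3.57 to 58.2%, with a median of 20.9%.

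These strain values were those on which the choice of genes rests, and the following counts are given beside them with nothing read from them. By the quasi-likelihood test of edgeR, at a Benjamini-Hochberg adjusted p of 0.05, 6 of the 8 genes passed in standard anterior, 7 in standard posterior, 2 in enriched anterior and 7 in enriched posterior libraries. All 8 were separate between strains in each group. Over all genes tested in standard anterior libraries, 0.37% passed in either direction, 0.325% passed with the higher level in B6D2F1N, and 2.04% had every B6D2F1N library above every C57BL/6J library. In standard posterior libraries these shares were 0.373, 0.318 and 2.1%, in enriched anterior libraries 0.0639, 0.0597 and 3.16%, and in enriched posterior libraries 0.394, 0.339 and 1.45%. DESeq2 called 8, 8, 4 and 8 of the 8 genes in standard anterior, standard posterior, enriched anterior and enriched posterior libraries. It called 1.24, 1.82, 0.692 and 1.57% of all genes in the same order. The median log2 fold change of the 8 genes was 1.79, 1.75, 1.58 and 1.43 in standard anterior, standard posterior, enriched anterior and enriched posterior libraries, against 0.016, 0.046, 0.034 and 0.028 over all genes tested. Without the mouse that had no Xist counts, the log2 fold changes of the 8 genes in standard housing ran from 0.76 for Mark3 to 3.01 for Tmem87a in the posterior portion and from 0.94 for Traf3ip1 to 2.90 for Tmem87a in the anterior portion.

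Because the strand setting of the counting was not stated, genes that overlap the 8 were examined next. The annotation holds 8 such genes and 6 of them were tested. Tmem87a starts inside Ganc, which encodes a glucosidase and is read from the other strand at chr2:120403896-120461700, and both share 209 exon bases at their starts. Ganc averaged 10.7 CPM in C57BL/6J mice against 9.90 CPM in the hybrid in standard anterior libraries, and 12.7 and 11.7 CPM in standard posterior, 7.45 and 10.7 CPM in enriched anterior and 11.5 and 16.3 CPM in enriched posterior libraries. Its strains overlapped in every group, and its log2 fold changes of -0.12, -0.11, 0.54 and 0.51 had adjusted p of 0.967, 0.961, 1 and 0.573 by edgeR's quasi-likelihood test. Myo19 starts head to head with Pigw, which encodes an acyltransferase of the glycosylphosphatidylinositol anchor pathway, and 106 exon bases are shared. Pigw averaged 11.5 and 6.64 CPM in C57BL/6J and B6D2F1N standard anterior libraries, the opposite direction to Myo19, with a log2 fold change of -0.80 ± 0.33 (SE), and it did not pass (edgeR adjusted p = 0.539). In the other groups its log2 fold changes were -0.52, -0.01 and -0.05.

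At their ends, Cap1 meets Ppt1, a lysosomal thioesterase gene at chr4:122836242-122859175 on the plus strand, with 129 shared exon bases, and Myo19 meets Znhit3, a zinc finger gene, with 277 shared exon bases. Ppt1 had 559 and 557 CPM in C57BL/6J and B6D2F1N standard anterior libraries, 497 and 501 in standard posterior, 480 and 550 in enriched anterior and 398 and 508 in enriched posterior libraries. Its log2 fold changes of 0.00, 0.02, 0.22 and 0.37 had adjusted p of 0.999, 0.992, 1 and 0.691 by edgeR's quasi-likelihood test. Znhit3 had log2 fold changes of -0.06 to 0.36, all with an edgeR adjusted p of at least 0.688. The pseudogene Gm16580 inside Luc7l had log2 fold changes between -0.62 and 0.55, and Gm48286 inside Mark3 had at most 18 counts in a library. In all, 0 of the 6 tested overlapping genes passed edgeR's test in any of the 4 strain comparisons, where 1, 0, 0 and 0 had an unadjusted p under 0.05, and 0 passed with DESeq2.

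**Figure D2:**
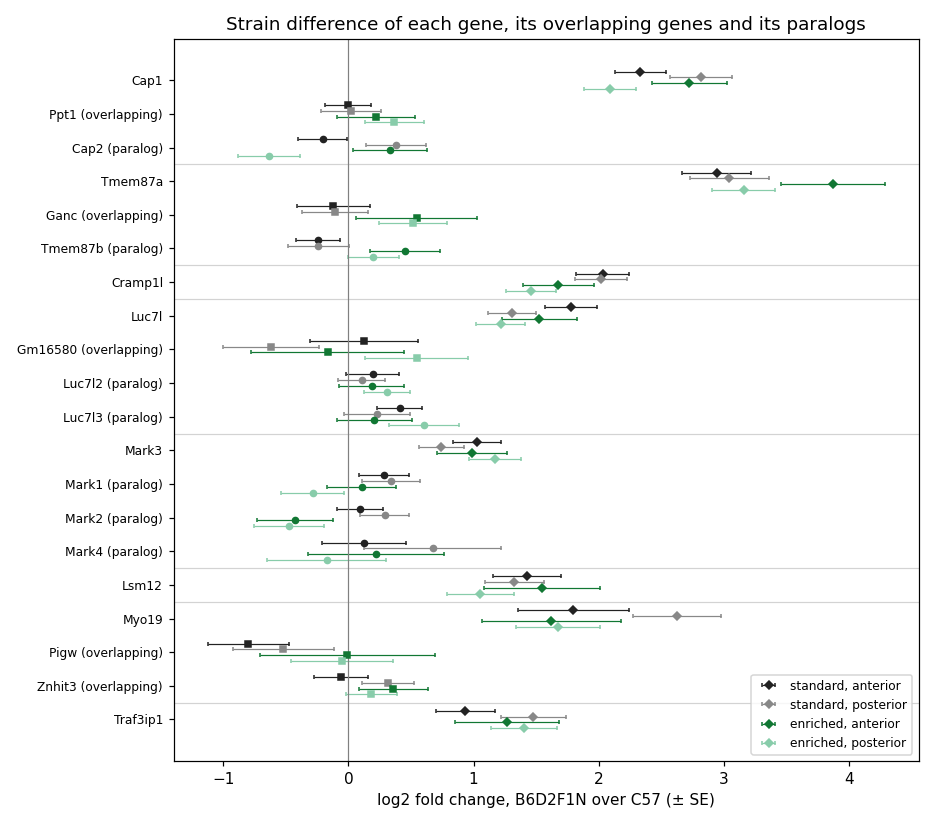
Log2 fold change of B6D2F1N over C57BL/6J (C57) with its SE in the 4 housing and portion groups (colours), for each of the 8 genes (diamonds), the genes that overlap it (squares) and its paralogs (circles), without Gm48286. The 8 genes lie between 0.74 and 3.87, and the overlapping genes and paralogs between -0.80 and 0.67.

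Reads of a gene with a near-identical copy could be divided between both, so windows of 72 bases, the read length, were taken every 36 bases from the 8 genes' transcripts and aligned to all annotated transcripts with at most 2 mismatches. Luc7l and Traf3ip1 had 0 windows that matched another gene, Mark3 had 1 of 594, Cramp1l 4 of 437, Cap1 8 of 277, Myo19 14 of 508 and Tmem87a 22 of 492. Most of those of Cap1, Myo19 and Tmem87a matched the overlapping genes above. Lsm12 stood apart with 33 of 145 windows (22.8%), all matching the processed pseudogene Gm9727 on chromosome 5. The coding bases 53 to 172 of Lsm12, spliced from chr11:102182944-102185154, and the corresponding bases of Gm9727, at chr5:107478942-107479061, both on the minus strand, are shown to let the likeness of the copies be seen, with differing bases in capitals.
Lsm12: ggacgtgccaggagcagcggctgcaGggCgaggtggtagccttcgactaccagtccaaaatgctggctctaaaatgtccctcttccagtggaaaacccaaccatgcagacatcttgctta
Gm9727: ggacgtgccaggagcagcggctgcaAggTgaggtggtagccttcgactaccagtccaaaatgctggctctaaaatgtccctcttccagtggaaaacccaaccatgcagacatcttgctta
Over 552 aligned bases the copies differed at 8, an identity of 98.6%. Gm9727 had 0 to 0.836 CPM over the 35 libraries, at most 18 counts, so that few reads were counted on it in either strain, and its strain difference did not pass in any group (edgeR adjusted p of 0.988, 0.999, 1 and 0.994). Reads that align equally well to both are left out of the counts as not unique, and how many Lsm12 lost in this way was not tested. Copies that are not annotated on GRCm38, and copies in the DBA/2 genome, were not searched.

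The 7 paralogs of the 8 genes had log2 fold changes between -0.64 and 0.67. Cap2, the other mouse cyclase-associated protein, had 157 and 135 CPM in C57BL/6J and B6D2F1N standard anterior libraries, and log2 fold changes of -0.21, 0.38, 0.33 and -0.64 in the 4 groups. Tmem87b had log2 fold changes of -0.24, -0.24, 0.45 and 0.20. Of the Luc7l paralogs, Luc7l2 had 0.11 to 0.31 and Luc7l3 0.21 to 0.60, with a higher mean in B6D2F1N in each group. Mark1, Mark2 and Mark4 had log2 fold changes between -0.47 and 0.67. Of these paralogs, 0 passed edgeR's test in any of the 4 groups, 1, 0, 0 and 2 had an unadjusted p under 0.05 (Luc7l3 in standard anterior, and Cap2 and Luc7l3 in enriched posterior libraries, with adjusted p of 0.541, 0.503 and 0.541), and 0 passed with DESeq2.

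Genes within 250 kb of the 8 were tested too. Between 102 and 121 such genes were tested per group, and 0 passed edgeR's test in any of the 4 strain comparisons, with 13, 15, 9 and 10 at an unadjusted p under 0.05 in standard anterior, standard posterior, enriched anterior and enriched posterior libraries. Among all genes tested 9, 10.3, 4.33 and 9.11% had such an unadjusted p. DESeq2 called 1, 2, 2 and 2, against 1.24, 1.82, 0.692 and 1.57% of all genes with an adjusted p by DESeq2. These 7 genes, named here after their values were seen, were Neurl1b in standard anterior, BC030867 and Gm7785 in standard posterior, Mrps34 and Arhgdig in enriched anterior, and Exoc3l4 and Pla2g4e in enriched posterior libraries. All 7 were higher in B6D2F1N, with DESeq2 log2 fold changes from 0.66 for Neurl1b to 6.39 for BC030867. Pla2g4e, a phospholipase gene near Tmem87a, had 2.31 and 9.78 CPM in C57BL/6J and B6D2F1N enriched posterior libraries, a log2 fold change of 2.08 ± 0.51 (SE) with adjusted p of 0.141 by edgeR and 0.00154 by DESeq2, where the strains did not overlap. Its log2 fold changes were 0.49 ± 0.46 in standard anterior, 1.44 ± 0.72 in standard posterior and 0.39 ± 1.1 in enriched anterior libraries, with overlapping strains and edgeR adjusted p of 0.853, 0.514 and 1. Between Cramp1l and Luc7l on chromosome 17 lie 1237107 bases, in which 54 to 60 genes were tested per group and 0 passed edgeR's test, with 8, 3, 4 and 3 at an unadjusted p under 0.05, and 0, 0, 1 and 0 by DESeq2.

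**Figure D3:**
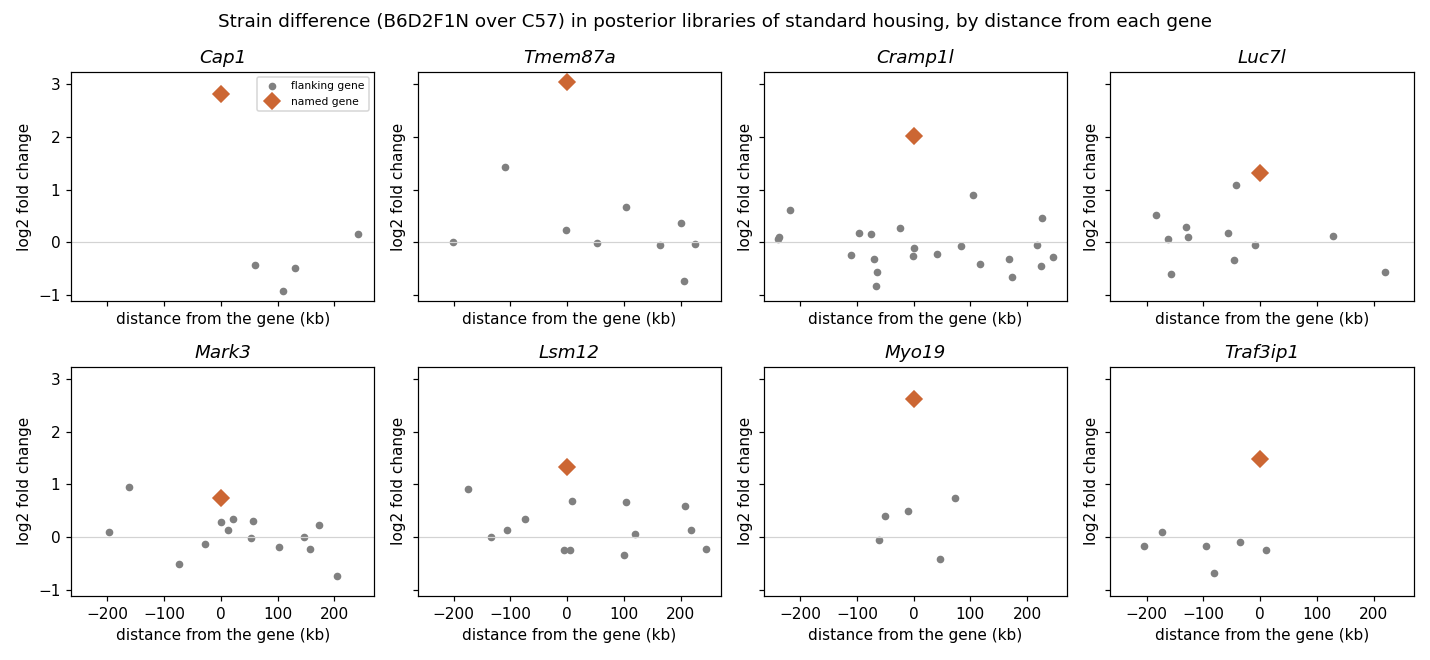
Log2 fold change of B6D2F1N over C57BL/6J in posterior libraries of standard housing against the distance from each of the 8 genes in kilobases of genome, for the gene itself (orange diamond at 0) and the flanking genes within 250 kb (grey) with a mean of at least 1 CPM in either strain. Of the 84 flanking genes plotted, 82 lie within 1 of 0 on the log2 scale, and they run from -0.92 to 1.44. All 113 flanking genes tested in this group, those of lower level included, ran from -2.45 to 6.93. BC030867 and Gm7785, which DESeq2 called in this group, are not among the genes plotted.

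Lists of genes related to the 8 by complex, process or protein family, called partner genes here, were examined as well. They were actin filament turnover for Cap1 and Golgi proteins with a luminal domain and a like number of membrane passes for Tmem87a. Polycomb-group proteins were listed for Cramp1l, the U1 small nuclear ribonucleoprotein for Luc7l and kinases related to the MARK family for Mark3. The last lists were LSM proteins and the ataxin-2 complex for Lsm12, mitochondrial transport for Myo19 and the intraflagellar transport complex B for Traf3ip1. The lists also hold the paralogs above. Of 129 genes tested on the 8 lists, 0 passed edgeR's test in any of the 4 strain comparisons, and 10, 10, 3 and 12 had an unadjusted p under 0.05 in standard anterior, standard posterior, enriched anterior and enriched posterior libraries, against the shares of 9, 10.3, 4.33 and 9.11% of all genes given above. The lists' medians lay between -0.37, for mitochondrial transport in enriched posterior libraries, and 0.36, for kinases related to the MARK family in standard posterior libraries, on the log2 scale. DESeq2 called 0, 3, 1 and 1 of them, namely Ift57, Lsm14b and Brsk2 in standard posterior, Pfn1 in enriched anterior and Pcgf2 in enriched posterior libraries, all higher in B6D2F1N, and these 5 are named after their values were seen. They stand against the DESeq2 shares of 1.24, 1.82, 0.692 and 1.57% of all genes. Ift57, a subunit of the same cilium complex as Traf3ip1, had a log2 fold change of 1.00 in standard posterior libraries with adjusted p of 0.192 by edgeR and 0.00393 by DESeq2.

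The comparisons of portions and of housing within a strain did not enter the choice of the genes, and the 8 were tested in them. Strain by portion and strain by housing were tested too, but these set against each other the strain differences that chose the genes. The choice asked for a difference in every group, so genes whose difference was lost in a group were left out beforehand. The portions were compared within each strain over the mice that had both, with the mouse as a block. Over all genes, 3.64% passed in C57BL/6J and 4% in B6D2F1N, and of the 8 genes 0 passed in either strain with edgeR, with 1 in each at an unadjusted p under 0.05, which is close to the shares of 13.5 and 15.5% among all genes tested. DESeq2 called 8.06% of all genes in C57BL/6J and 10.4% in B6D2F1N. In B6D2F1N the gene was Cap1, which had 147 ± 22 CPM (SD, n = 10) in anterior and 114 ± 21.5 CPM in posterior libraries and was lower in the posterior portion in 9 of 10 mice. Its log2 difference was -0.37 ± 0.12 (SE), with adjusted p of 0.0925 by edgeR's quasi-likelihood test and 0.0209 by DESeq2, which called it as 1 of the 8. Without the mouse that had no Xist counts the edgeR values were -0.35 and an adjusted p of 0.178. In C57BL/6J Cap1 was lower in the posterior portion in 4 of 6 mice, with a log2 difference of -0.31 ± 0.24. The gene in C57BL/6J was Luc7l, which had 74.6 ± 13.3 CPM (SD, n = 6) in anterior and 102 ± 7.99 CPM in posterior libraries and was higher in the posterior portion in 6 of 6 mice. Its log2 difference was 0.47 ± 0.16 (SE), with adjusted p of 0.135 by edgeR and 0.0553 by DESeq2, which called 0 of the 8 in C57BL/6J. In B6D2F1N Luc7l was higher in the posterior portion in 5 of 10 mice, and its log2 difference was -0.03 ± 0.13. The difference between the strains in this change, tested as strain by portion, was -0.51 ± 0.21 for Luc7l with an adjusted p of 1 by edgeR (unadjusted 0.0202). For strain by portion 0% of all genes passed, and 0 of the 8 passed with edgeR or DESeq2, with 1 and 2 at an unadjusted p under 0.05, where edgeR gave 2.96% of all genes and DESeq2 called 0.0246%. Without the mouse that had no Xist counts, the value of Luc7l was -0.60 with an adjusted p of 1 by edgeR.

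Housing was compared within each strain and portion. No gene of the 8 passed edgeR's or DESeq2's test in any of these 4 comparisons. Among all genes 0% passed in C57BL/6J anterior, 0.0163% in C57BL/6J posterior, 0% in B6D2F1N anterior and 0% in B6D2F1N posterior libraries, and of the 8 genes 0 had an unadjusted p under 0.05 with edgeR in each, while DESeq2 gave 1, in C57BL/6J posterior libraries. DESeq2 called 0.557, 1.59, 0.0335 and 0.0643% of all genes in the same order. Without the mouse that had no Xist counts, the 8 genes in B6D2F1N ran from -0.17 to 0.24 in anterior and from -0.37 to 0.18 in posterior libraries, 0 passed with edgeR, and 1, Cap1 in posterior libraries, had an unadjusted p under 0.05. The log2 differences of enriched over standard housing for the 8 genes ran from -0.73 (Tmem87a) to 0.47 (Cramp1l) in C57BL/6J anterior, from -0.24 (Mark3) to 1.11 (Myo19) in C57BL/6J posterior, from -0.07 (Luc7l) to 0.18 (Tmem87a) in B6D2F1N anterior and from -0.28 (Cap1) to 0.19 (Mark3) in B6D2F1N posterior libraries. The largest, that of Myo19 in C57BL/6J posterior libraries, was 1.11 ± 0.52 (SE) from 1.98 ± 0.569 CPM (SD, n = 4) in standard to 4.3 ± 1.2 CPM (n = 4) in enriched housing, where the ranges of 1.22 to 2.49 and 2.83 to 5.78 CPM did not overlap, and its adjusted p was 0.485 by edgeR. Its normal 95% interval ran from 0.09 to 2.13, with an unadjusted p of 0.0509 by edgeR.

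**Figure D4:**
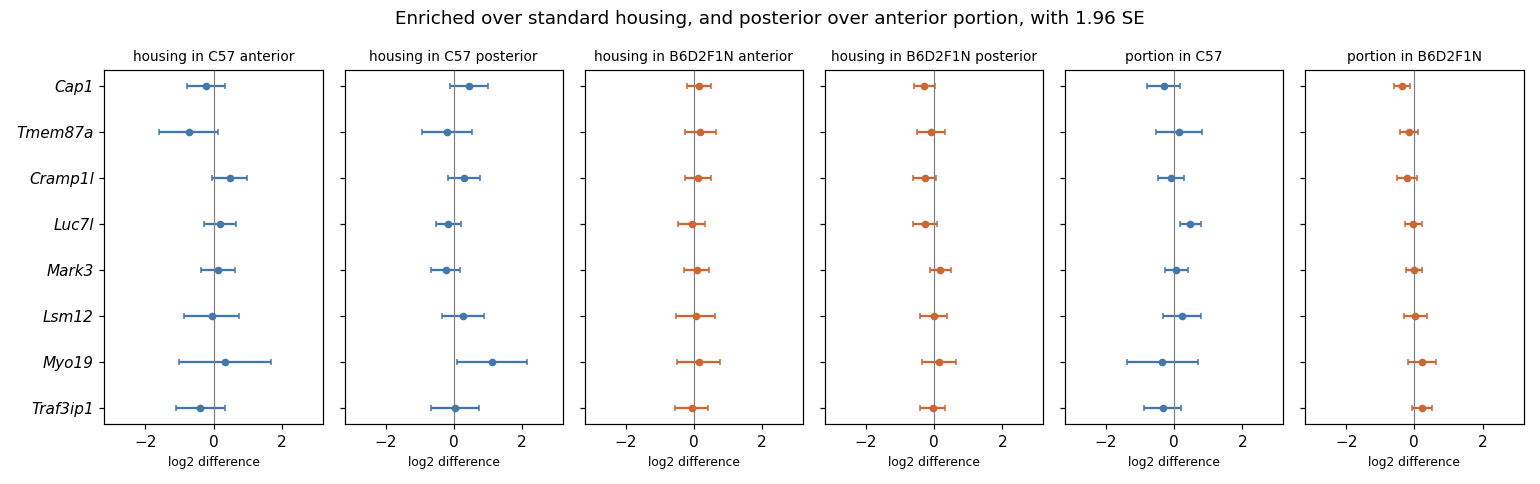
Log2 difference of each of the 8 genes between enriched and standard housing (4 left panels, by strain and portion) and between posterior and anterior portions of the same mice (2 right panels, by strain), where C57 is C57BL/6J, points are edgeR estimates and bars normal 95% intervals. The bars cross 0 for all but Myo19 in the posterior housing panel of C57BL/6J, Luc7l in the portion panel of C57BL/6J and Cap1 in the portion panel of B6D2F1N, and none of these passed edgeR's test after adjustment over all genes.

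Whether the strain difference itself changed with housing was tested as strain by housing in each portion, where 0% of all genes passed in the anterior and 0% in the posterior portion. Of the 8 genes 0 passed in either portion with edgeR or DESeq2, a count that the choice of genes with a difference in every group limits. In the posterior portion 3 of the 8 had an unadjusted p under 0.05 with edgeR, against 8.38% of all genes tested, and in all 3 the estimated strain difference was smaller in enriched housing. DESeq2 gave 3 at an unadjusted p under 0.05 in the posterior portion, and its calls made up 0.0334% (anterior) and 0.17% (posterior) of all genes. Without the mouse that had no Xist counts, 1 of the 8, Cap1, had an unadjusted p under 0.05 with edgeR in the posterior portion, and 0 passed. Cap1 had a log2 difference of -0.72 ± 0.29 (SE) between the strain effects (edgeR adjusted p = 0.513), Cramp1l one of -0.55 ± 0.26 (edgeR adjusted p = 0.571) and Myo19 one of -0.95 ± 0.43 (edgeR adjusted p = 0.553). Mark3 had the opposite sign, with 0.44 ± 0.25. In the anterior portion, with 2 enriched C57BL/6J libraries, 0 of the 8 had an unadjusted p under 0.05 with edgeR and 1 with DESeq2, and Tmem87a had the largest value, 0.91 ± 0.44 (edgeR adjusted p = 0.831). The share of all genes with such an edgeR p was 5.98%. Without the mouse that had no Xist counts, 1 of the 8, Tmem87a, had an unadjusted p under 0.05 with edgeR there. The highest log2 difference of the 8 was then 0.96, and 0 passed (lowest edgeR adjusted p = 0.791).

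Optimists and pessimists could not be compared apart from housing. All 4 optimists lived in standard and 4 of the 5 pessimists in enriched housing, and the 1 pessimist in standard housing was the mouse without Xist counts. A fit with housing as a term thus rested on that 1 mouse and could not be fitted without it, and no result is given for this comparison.

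For each of the 8, the 3 other genes with the most similar log2 CPM over the 35 libraries were listed, as a description over libraries that share mice and strain. The 24 entries held 18 genes with Pearson's r of 0.88 to 0.975, of which 13 were processed pseudogenes and 4 protein-coding genes, and 1 entry lay on the same chromosome as its counterpart. Closest to Cap1 were Gm1840, Atp6v0c-ps2 and Eno1b, with r of 0.975, 0.969 and 0.966. Closest to Tmem87a were Gm1833, Atp6v0c-ps2 and Eif5al3-ps, to Cramp1l Gm1833, Tpm3-rs7 and Eno1b, and to Luc7l Tpm3-rs7, Gm5900 and Gm15920. Closest to Mark3 were Gm15920, Gm5510 and Gm4204, to Lsm12 Gm13443, Gm12663 and Tpm3-rs7, to Myo19 Prss41, Gm5678 and Gm8822, and to Traf3ip1 Gm7125, Gm6969 and Gm14719. Most of these genes were close to 0 in C57BL/6J, as Gm15920 had a mean of 0.177 CPM there and 22 CPM in B6D2F1N, and Tpm3-rs7 0.85 and 26.8 CPM. Atp6v0c-ps2 had the highest C57BL/6J mean of them, 4.33 CPM, against 174 CPM in B6D2F1N. Within a strain the likeness was weaker, with r of -0.044 to 0.649 over the 14 C57BL/6J libraries and -0.203 to 0.784 over the 21 B6D2F1N libraries. Between the 8 genes themselves, the 28 pairs had r of 0.731 to 0.954 over all libraries, -0.719 to 0.418 within C57BL/6J and -0.418 to 0.398 within B6D2F1N.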

How the data were processed

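The authors sequenced laser-captured basolateral amygdala cells as single reads of 72 bases. Per the labels and the study's methods, reads were trimmed with Trimmomatic 0.38, aligned to GRCm38 with HISAT2 2.1.0 and counted on genes with HTSeq 0.11.2. The deposited files hold raw counts per gene and library. The annotation release and the strand setting of the counting are not given in the sources used here. Rows for reads without a gene (13.7 to 26.4%), ambiguous reads (3.06 to 3.74%) and reads without a unique alignment (6.23 to 10.9%) stayed out of library sizes. Gene positions came from GENCODE M21, which matched 52489 of 52636 identifiers.

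Each comparison was fitted over all genes with at least 10 counts in total with TMM scaling and the quasi-likelihood test (glmQLFit and glmQLFTest, edgeR 4.0.16, R 4.3.3), with Benjamini-Hochberg adjustment over all genes fitted and a threshold of 0.05. The SE of a log2 fold change was computed from the F statistic. The alternatives were DESeq2 1.42.0, its size factors, edgeR's filterByExpr, no filter, 1 fit for the 4 groups of a portion, no mouse block, no strain and housing terms (optimists against pessimists) and each mouse left out. Likeness used log2 CPM with a prior count of 2. Portions were compared with the mouse as a block, because the labels give both portions of a mouse. Deviations from group means of the 2 portions of a mouse correlated at -0.077 to 0.2 (median 0.0284, 16 mice, 18187 genes). Strain comparisons are of separate mice. The scripts were tested on simulated data.

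The 8 genes, the related genes and the marker lists were chosen with earlier results of these data known. The genes named besides them were their overlapping genes, paralogs, the copy of each with the most shared windows, the 3 most alike genes of each, and flanking or partner genes past the threshold, of which edgeR gave 0, so that those DESeq2 called are named outside that rule.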

Additional observations from a re-analysis of the deposited data

Results flagged for a closer look

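A library was set apart when its gap to the nearest library of its group was large against the range of the group, by Dixon's criterion. Of 56 combinations of gene and group tested, 4 held such a library, where chance gives about 1 in 20. Cap1, the actin regulator, had 127.3 CPM in B6D2F1N enriched posterior mouse 6, above the next highest of 103.8 CPM. Luc7l, the splicing factor gene, had 171.9 CPM in B6D2F1N standard anterior mouse 1, the mouse without Xist counts, below the next lowest of 256.1 CPM. Lsm12, the ataxin-2 partner, had 35.89 CPM in B6D2F1N enriched posterior mouse 2, above the next highest of 23.6 CPM. Traf3ip1, of the intraflagellar transport complex, had 8.295 CPM in C57BL/6J standard anterior mouse 4, below the next lowest of 13.86 CPM. Each of these libraries stayed on its own strain's side of the gap between the strains.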

How the results depend on the processing

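The strain log2 fold changes of the 8 genes kept their direction in all 440 values that the alternative fits gave. Because the genes were chosen on these differences in the same libraries, nothing is read from that count. The median over the 8 genes, with 1 mouse left out in turn, was 1.61 to 1.91 in standard anterior, 1.68 to 1.81 in standard posterior, 1.48 to 1.71 in enriched anterior and 1.38 to 1.57 in enriched posterior libraries, where leaving out 1 of 2 C57BL/6J libraries left a lone sample assumed to vary like the other group. In the other comparisons 147 of 148 tests of single genes kept their side of the threshold, the exception being Cap1 between portions in B6D2F1N with DESeq2, which brought the count of the 8 genes called there from 0 to 1. Without the replicate block by mouse, Cap1 there had a log2 difference of -0.36 and an adjusted p of 0.0827, and no call changed. Among related genes, 0 passed in the reported fits, and DESeq2 called 1 in standard anterior, 5 in standard posterior, 3 in enriched anterior and 3 in enriched posterior libraries. With no filter 2 passed in enriched anterior libraries (Pfn1 and Arhgdig), and with 1 fit for the 4 groups of a portion 1 passed in standard posterior libraries (Gm7785). The causes were not tested. Enriched anterior comparisons had 2 C57BL/6J libraries, counts of Myo19 in C57BL/6J were low, and optimists against pessimists could not be fitted without the 1 pessimist in standard housing.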
